A study of Homo sapiens with 42 samples.

Results

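Chromatin accessibility around the genes of the Notch pathway was measured by ATAC-seq, which counts transposase insertions in open chromatin, in 4 EGFR-mutant lung adenocarcinoma cell lines (PC9, H1975, HCC827 and HCC2935). The genes followed were the receptors NOTCH1, NOTCH2, NOTCH3 and NOTCH4, the ligands JAG1, JAG2 and DLL1, and the target genes HES1, HEY1 and NRARP. Every region that carried one of these symbols in the annotated table of a line was a member, which gave 217 of 242490 annotated regions over the 4 tables. PC9 had 76 member regions of 69565, H1975 had 65 of 76952, HCC827 had 17 of 30709 and HCC2935 had 59 of 65264. Member regions were found for 8 of the 10 genes. NOTCH4 and DLL1 are not analysed here. All 217 member regions passed the filter on low counts in their line and were tested.

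There were 42 libraries in 14 groups of 3. Drug-tolerant persister (DTP) cells had been held in 500 nM osimertinib, a later-generation EGFR inhibitor, for 24 days. Combo cells had been in osimertinib for 21 days and then received 150 nM AZD5153 for 3 days. The labels do not state whether osimertinib stayed on during those days. AZD5153 cells were drug-free for 21 days before the same 3 days of AZD5153, and control cells were drug-free for 21 days before 3 days of DMSO. The AZD5153 group existed in PC9 and H1975 only. Each line is a single established culture, so every difference below is within a line. Nothing in the labels says that the 3 libraries of a group came from separate cultures.

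Notch is a receptor system for signalling between touching cells. A Jagged or Delta ligand on one cell binds a Notch receptor on the next, and the receptor is then cut by an ADAM protease and by gamma-secretase. The released intracellular part enters the nucleus and turns the DNA-binding protein RBPJ from a repressor into an activator, with Mastermind proteins as partners. HES1 and HEY1 are bHLH repressors and direct targets of this complex, and NRARP is a target that feeds back to limit it. In the airway Notch governs the choice between secretory and ciliated fates.

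Promoter sequences from RefSeq (GRCh38.p14) were at hand for NOTCH1, NOTCH2, NOTCH3, JAG1, JAG2, HES1 and NRARP. In the 250 bases before the start, on both strands, the letters GTGGGAA of the RBPJ site occurred once, in HES1, 85 bases before the start. The same letters were present in 5.43% of 35116 promoters. The N-box CACNAG, bound by HES proteins, occurred 3 times in the HES1 window and was present in 32.0% of promoters. The E-box CANNTG occurred 2 times in each of the JAG2 and NRARP windows and was present in 61.8% of promoters. Neither the AP-1 site TGANTCA (6.57% of promoters) nor the TEAD site GGAATG (11.9%) was found in these 7 windows. The HES1 and NRARP windows are printed because both genes are Notch targets and the values at their start regions are given in what follows. The HES1 window is chr3:194135898-194136147 on the plus strand and the NRARP window is chr9:137302272-137302521 on the minus strand. Capitals mark the RBPJ letters.
HES1: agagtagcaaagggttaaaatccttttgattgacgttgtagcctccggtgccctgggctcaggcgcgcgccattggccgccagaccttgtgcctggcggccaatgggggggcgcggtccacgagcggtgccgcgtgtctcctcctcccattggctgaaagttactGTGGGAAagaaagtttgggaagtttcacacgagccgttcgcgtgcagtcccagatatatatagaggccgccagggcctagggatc
NRARP: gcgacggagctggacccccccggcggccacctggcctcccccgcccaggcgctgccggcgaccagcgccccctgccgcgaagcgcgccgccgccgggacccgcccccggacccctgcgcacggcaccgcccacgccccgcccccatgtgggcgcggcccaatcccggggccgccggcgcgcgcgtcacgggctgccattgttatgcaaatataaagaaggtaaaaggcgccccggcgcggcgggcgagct

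The count tables held 3989287 to 5193390 reads per library in PC9, 6200672 to 10062505 in H1975, 1724680 to 4242868 in HCC827 and 3968690 to 8066287 in HCC2935. Levels are given as CPM, each count scaled by the library's total over the whole table of its line. The variance between libraries of a group, divided by the variance that counting alone gives, was 0.959 to 1.04 in PC9, 0.966 to 1.22 in H1975, 1.18 to 1.83 in HCC2935 and 1.21 to 8.76 in HCC827. The 3 PC9 libraries of a group, and most H1975 libraries, therefore differed by no more than sampling noise, and p-values there measure counting error. For this reason the counts over all Notch regions, by position and over the pathway list are followed, in PC9, H1975 and HCC2935, by the count with the libraries of a group summed to 1 sample and the spread taken from HCC2935. The epithelial markers EPCAM, CDH1, KRT8, KRT18 and KRT19 had an annotated region over a start in every line (5 of 5), with median levels of 12.2 to 38.4 CPM. Single libraries were lower, down to 3.61 CPM at EPCAM in HCC827 and 4.45 CPM at CDH1 in H1975. In PC9 and HCC2935 no library was below 15.4 CPM at these 5 genes. The leukocyte gene PTPRC had no annotated region in any line, and CD3E had one 2685 to 4407 bases from a start in every line but HCC827. The fibroblast gene COL1A1 had one over a start in every line, with medians of 15.1 to 23.7 CPM, within the epithelial range. The endothelial gene CDH5 had one over a start in every line but HCC827, where it lay 3036 bases away. Its medians were 8.78 to 16.9 CPM. PECAM1 had an annotated region in every line and PDGFRB in every line but HCC827. Of the lung genes, NKX2-1 had one over a start in every line, with medians of 7.72 (PC9) to 20.8 CPM. NAPSA had none in HCC827, and SFTPB none in PC9 and HCC2935. Fold changes come from the fitted model, which rescales libraries by TMM, so they can differ slightly from ratios of CPM.

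The promoter region of a gene was taken as its annotated region nearest to a transcription start. Among these regions HES1 had the highest mean of the 8 genes in every PC9 and HCC2935 group, and either HES1 or JAG1 did in every H1975 and HCC827 group. The NOTCH1 region so chosen lay 17.4 kb from the RefSeq start in H1975 and 23.3 kb from it in HCC827 and HCC2935, and at the NOTCH1 RefSeq start the HCC2935 DTP mean was 22.4 CPM, above the 18.8 CPM at HES1. Over the 14 groups the mean at HES1 lay between 18.8 CPM (HCC2935 DTP) and 34.2 CPM (PC9 combo), at JAG1 between 12.04 CPM (HCC2935 DTP) and 34.2 CPM (H1975 combo), and at NRARP between 10.6 CPM (H1975 DTP) and 17.9 CPM (HCC2935 combo). Regions are of one width, so levels of different genes in the same line can be set side by side. Each line was counted over its own regions, so levels of different lines are not directly comparable and were not tested. The HES1 and JAG1 ranges overlap, and in H1975 control their means were 25.4 ± 4.76 and 25.0 ± 0.70 CPM (SD, n = 3). A peak lay over the HES1 and JAG1 promoter regions in 42 of 42 libraries, over NRARP and JAG2 in 41 of 42, over NOTCH1 and NOTCH3 in 36 of 42, and over HEY1 and NOTCH2 in 32 of 33. Over the RefSeq starts themselves a peak lay at NOTCH1 in 40 of 42 libraries, at JAG2 in 37 of 42, at NOTCH3 in 23 of 42 and at NOTCH2 in 14 of 33.

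**Figure D1:**
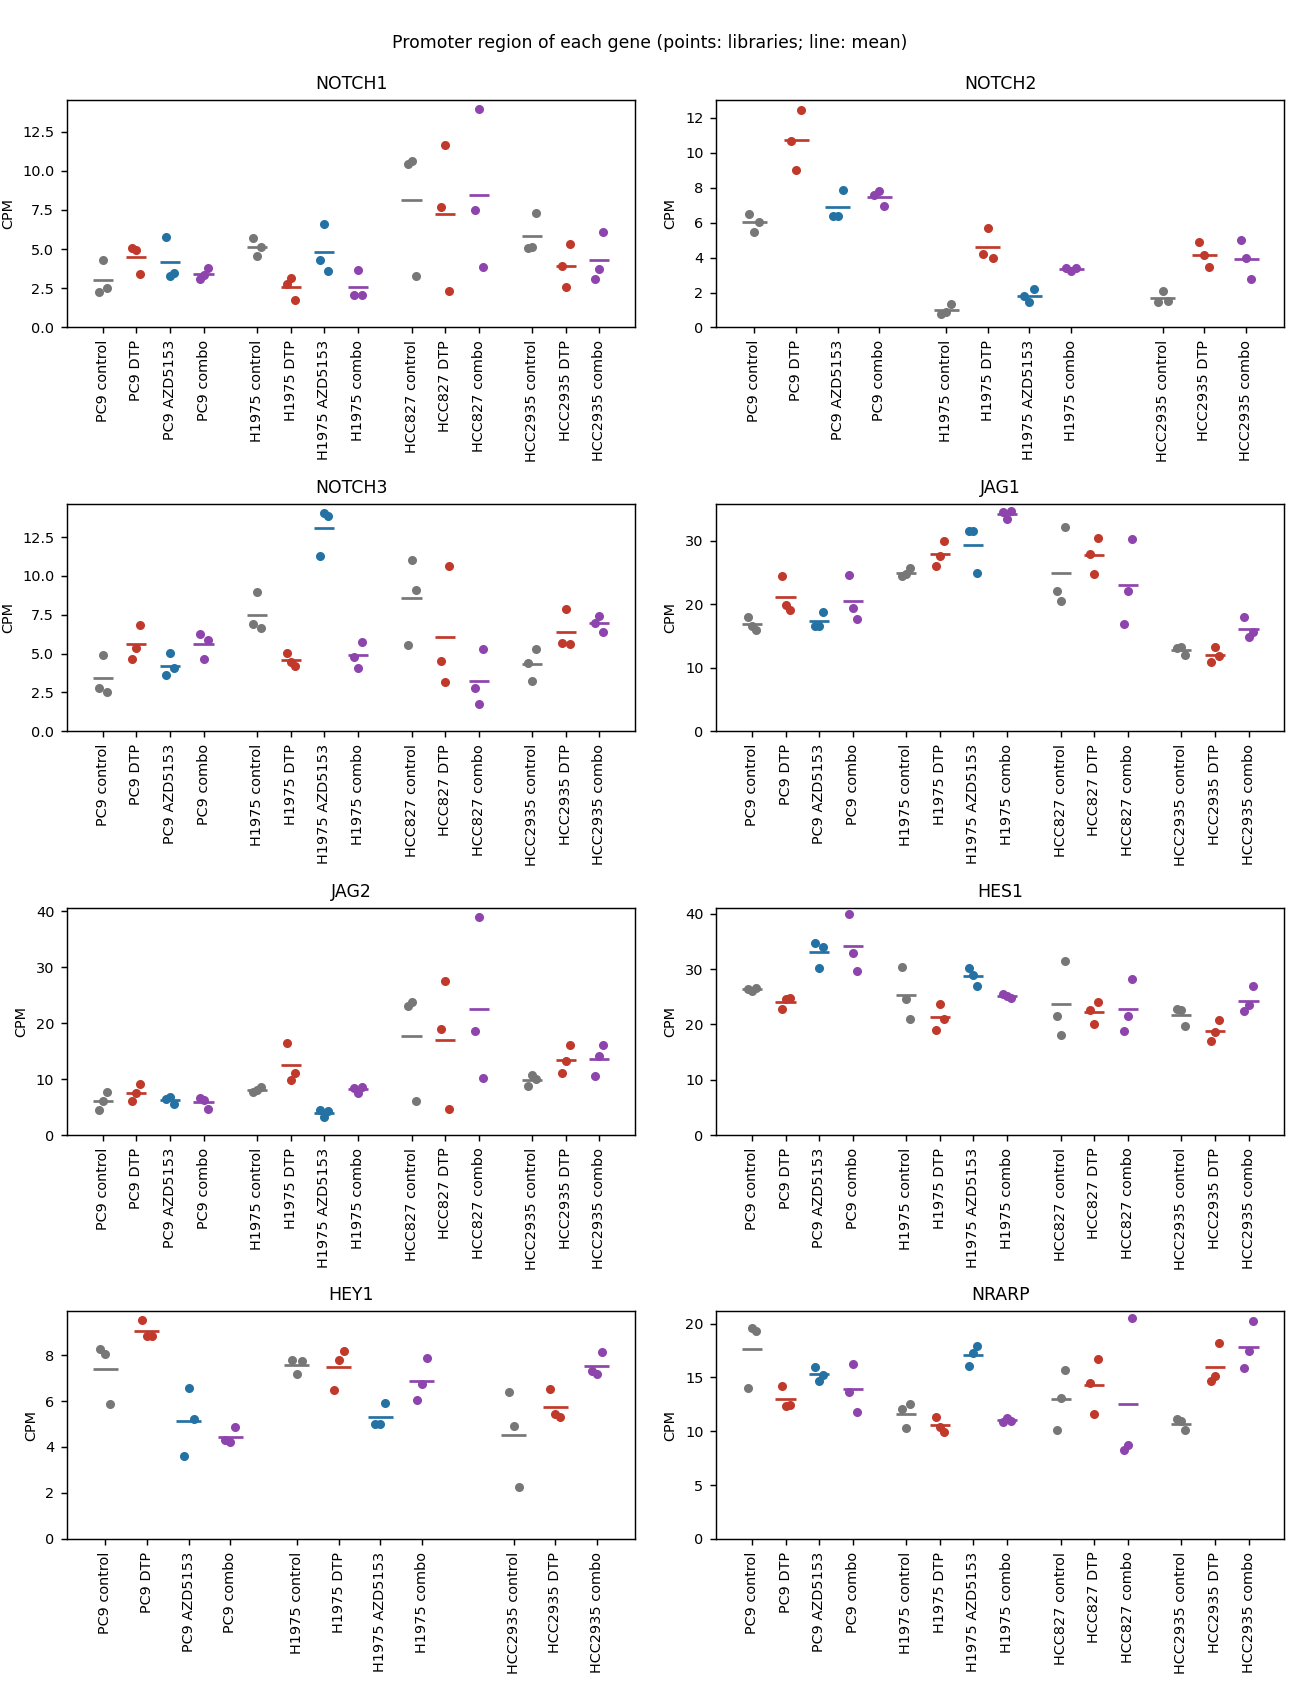
CPM (linear axis from 0) of the promoter region of each of 8 genes in the libraries of each group, with points for libraries and a line for the mean of 3. Group means at HES1 lie between 18.8 and 34.2 CPM, whereas the mean at the NOTCH2 promoter region is 1.01 CPM in H1975 control and 4.63 CPM in H1975 DTP cells. For NOTCH1, NOTCH2, NOTCH3 and JAG2 the nearest annotated region can lie many kilobases from the RefSeq start, and lines without an annotated region have no points.

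At the RefSeq starts of the receptors, accessibility was uneven. The region over the NOTCH1 start carries the symbol MIR4674 in the annotated tables and so is no member. It held 24.6, 21.0 and 23.3 CPM in PC9 control libraries and 14.6, 17.9 and 16.5 CPM in PC9 DTP libraries. The groups did not overlap, and the log2 change of -0.52 (SE 0.121, edgeR adjusted p = 0.000203) had an adjusted p of 0.112 with libraries summed. In H1975 the mean went from 17.5 to 20.6 CPM (log2 0.07, adjusted p = 0.568) and in HCC2935 from 18.8 to 22.4 CPM (log2 0.16, adjusted p = 0.384), neither called. The region over the NOTCH2 start stayed between 0.465 and 2.48 CPM in every group of the 3 lines that had it. NOTCH2 has near-identical partial copies on chromosome 1, so reads at its 5′ part may be split between copies and its values are uncertain.

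In DTP cells against control, the comparison that asks what the tolerant state changed, most called Notch regions were lower in PC9, H1975 and HCC2935. Of the regions that fell, HES1 held 11 in PC9, 10 in H1975 and 5 in HCC2935, and NOTCH3 held 5, 6 and 4. NRARP held 9, 10 and 1 of them, and JAG2 held 1, 3 and 17. A region was called where its Benjamini-Hochberg adjusted p from the quasi-likelihood test of edgeR was below 0.05. In PC9, 37 of 76 Notch regions were called, 8 higher and 29 lower, where 38.0% of all annotated regions were called (16.4% higher and 21.7% lower). In H1975, 50 of 65 were called, 13 higher and 37 lower, against 62.6% of annotated regions (25.8% higher and 36.8% lower). In HCC2935, 32 of 59 were called, 4 higher and 28 lower, against 45.1% (23.9% higher and 21.2% lower). With the median of each 10 Mb of genome removed, HCC2935 had 8 higher and 17 lower (31.9% of all tested regions called). In HCC827 none of 17 was called, where 0.0458% of annotated regions were. There 2 Notch regions had an unadjusted p under 0.05.

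The median log2 change over the Notch regions was -0.22 in PC9 and -0.38 in H1975, and HCC827 and HCC2935 had -0.31 and -0.53. Over all annotated regions the medians were -0.03 (PC9), -0.07 (H1975), -0.06 (HCC827) and 0.07 (HCC2935). Of the 59 HCC2935 regions, 22 belong to JAG2, whose surroundings had a median of -1.04. With libraries summed, 26 Notch regions were called in PC9, 34 in H1975 and 27 in HCC2935, where 19.4%, 40.2% and 32.9% of all tested regions were. In H1975 scaling by library size alone, which shifts all regions by 0.20 on the log2 scale, gave 16 higher and 26 lower (55.4% of all tested regions called). In HCC827 the replicate numbers were taken to pair the libraries, which the labels do not state. With the number as a block 1 Notch region was called, where 3.88% of all tested regions were. It lay 14.5 kb upstream of NRARP, at 15.9, 9.82 and 6.06 CPM in control libraries and 6.77, 4.23 and 2.36 CPM in DTP libraries of the same numbers (adjusted p = 0.0316 with the block and 0.647 without it).

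The counts were also taken by position, with promoter regions being those within 3 kb of an annotated start. In PC9, 23 of 45 non-promoter Notch regions fell and 2 rose, with a median of -0.45, where 29.2% of annotated non-promoter regions fell and their median was -0.14. In H1975, 30 of 41 fell and 4 rose (median -0.54, against 45.5% and -0.22). In HCC2935, 14 of 26 fell and 2 rose (median -0.56, against 26.4% and 0.02). Of 31 promoter Notch regions in PC9, 6 were higher and 6 lower, where 14.9% and 14.6% of annotated promoter regions were. Of 24 in H1975, 9 were higher and 7 lower (26.1% and 27.0%). Of 33 in HCC2935, 2 were higher and 14 lower (21.5% and 14.8%), and 13 of these 14 belong to JAG2. With libraries summed, 21 non-promoter and 5 promoter regions were called in PC9, 24 and 10 in H1975, and 12 and 15 in HCC2935. Of all tested regions, whatever their position, 19.4%, 40.2% and 32.9% were called in this way in the 3 lines. Whether promoter and non-promoter regions differed was not tested. Regions in one locus share a target gene and are not independent, so these counts are a description.

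**Figure D2:**
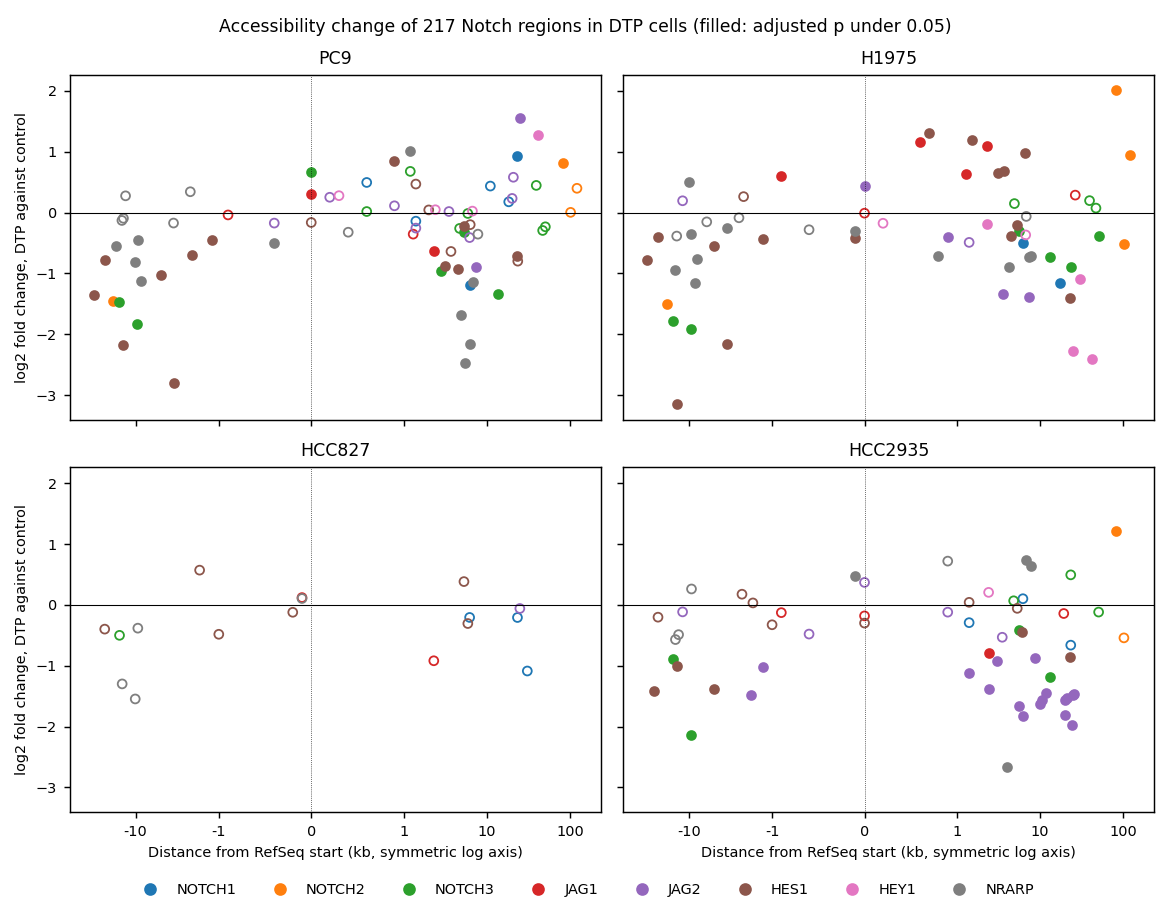
Log2 fold change of DTP against control (vertical axis) for each of the 217 Notch regions by distance from the RefSeq start in kb (horizontal symmetric log axis), 1 panel per line and 1 colour per gene, filled where the adjusted p was under 0.05. Most filled points lie below 0, with the HES1 region 14 kb upstream lowest in H1975 at -3.15 and the NOTCH2 region 82.4 kb into the gene highest at 2.01.

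Of 107 groups of overlapping Notch regions, 56 were found in the count tables of all 4 lines, whether or not the region carried the symbol in each. Of these 56, 8 were called lower and 1 was called higher in PC9, H1975 and HCC2935. Of 82802 regions matched over the 4 tables, 3.26% were called lower in these 3 lines and 2.18% higher. Only 60504 of the 82802 were tested in all 3 lines, of which 2701 were called lower and 1801 higher. Of the 56 Notch groups, 54 were tested in the 3 lines. Matched regions need not be annotated, whereas each Notch group holds an annotated region, so the 2 sets are not alike. The 8 that fell were 4 regions of NOTCH3, 3 of HES1 and 1 of JAG2, and the 1 that rose belonged to NOTCH2.

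NOTCH3, a receptor best known from vascular smooth muscle, lost accessibility upstream in each of these 3 lines. The region 9.4 to 9.5 kb upstream (chr19:15210212-15210713 in PC9, hg38) held 23.8, 25.7 and 24.8 CPM in PC9 control libraries and 7.59, 5.74 and 8.03 CPM in DTP libraries. In H1975 it held 8.91, 9.95 and 9.93 CPM in control and 2.28, 3.38 and 2.83 CPM in DTP libraries. In HCC2935 it held 18.4, 8.39 and 15.1 CPM in control and 3.58, 3.57 and 2.98 CPM in DTP libraries. Control and DTP libraries did not overlap in any of the 3 lines. The log2 changes were -1.83 (SE 0.145, edgeR adjusted p = 9.87e-31) in PC9, -1.92 (SE 0.173, adjusted p = 7.31e-22) in H1975 and -2.14 (SE 0.240, adjusted p = 1.16e-09) in HCC2935. In HCC827 the libraries held 7.48, 4.50 and 12.4 CPM in control and 1.35, 2.11 and 4.95 CPM in DTP. DTP was below control in each of the 3 pairs of the same number. With the number as a block the log2 change was -1.56 (SE 0.406, adjusted p = 0.0298), and without it -1.52 (SE 0.549, adjusted p = 0.441). The region carries no Notch symbol in the annotated HCC827 table and so is not among the 17 counted there.

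A second NOTCH3 region, 15.7 kb upstream, fell by 1.48 on the log2 scale in PC9, by 1.78 in H1975 and by 0.89 in HCC2935. Its PC9 libraries held 31.6, 30.8 and 30.1 CPM in control and 11.1, 13.3 and 9.44 CPM in DTP. Inside the gene, the region 13.3 to 13.6 kb from the start fell by 1.34 in PC9, 0.73 in H1975 and 1.18 in HCC2935, and it did not pass the filter in HCC827. The broadly open region about 5.4 kb into the gene changed least of these 4, from a mean of 34.8 to 28.6 CPM in PC9 (log2 -0.31, adjusted p = 0.00552). The start region itself was low, between 1.13 and 5.61 CPM in all groups, and in PC9 it went the other way (log2 0.67, SE 0.254, adjusted p = 0.0313, or 0.154 with libraries summed).

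NOTCH1, the receptor with the widest role in lineage choice, had few member regions, 6, 2, 3 and 3 in the lines in the order above. Its region 6.2 to 6.3 kb into the gene held 11.03, 13.9 and 13.5 CPM in PC9 control and 5.65, 6.16 and 5.62 CPM in PC9 DTP libraries, with a log2 change of -1.19 (SE 0.180, edgeR adjusted p = 2.32e-09). H1975 went from a mean of 38.0 to 30.1 CPM (log2 -0.50, SE 0.0772, adjusted p = 3.24e-09). In HCC2935 the same region held 22.2 and 25.4 CPM (log2 0.10, adjusted p = 0.557). In PC9 the NOTCH1 region 23.3 kb into the gene rose by 0.93 (SE 0.287, adjusted p = 0.00657), but it was just above the threshold with libraries summed. These NOTCH1 regions were chosen after their values were seen.

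NOTCH2 held the region called higher in 3 lines. This region, 82.4 kb from the RefSeq start and annotated as the start of a shorter transcript (chr1:119987038-119987539 in PC9), held 6.52, 5.49 and 6.06 CPM in PC9 control and 10.7, 9.03 and 12.5 CPM in DTP libraries. H1975 libraries held 0.764, 0.885 and 1.37 CPM in control and 4.21, 5.70 and 3.98 CPM in DTP. HCC2935 libraries held 1.46, 2.10 and 1.51 CPM and then 4.88, 4.15 and 3.48 CPM. DTP libraries were above control libraries without overlap in all 3 lines, by 0.81 (SE 0.188, edgeR adjusted p = 0.000163), 2.01 (SE 0.274, adjusted p = 3.11e-11) and 1.22 (SE 0.344, adjusted p = 0.00446) on the log2 scale. In HCC827 the mean was 4.63 CPM in control and 8.73 CPM in DTP cells (log2 0.90, adjusted p = 0.725, or 0.203 with the replicate block). The NOTCH2 region 18.5 kb upstream fell by 1.46 in PC9 and by 1.5 in H1975.

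The ligands did not move as a group. JAG1, the ligand most often active in epithelial tumours, gained accessibility near its start in H1975, where 4 of 6 member regions rose and none fell. A region 19.2 kb into the gene, matched over lines but no member in H1975, fell there by 1.73 (SE 0.420, edgeR adjusted p = 0.000191). The JAG1 region 2.3 to 2.4 kb into the gene (chr20:10671434-10671935) held 8.79, 8.63 and 9.01 CPM in H1975 control and 19.5, 21.4 and 22.4 CPM in DTP libraries. Its log2 change was 1.09 (SE 0.113, edgeR adjusted p = 1.42e-17). The same region fell in PC9, from 15.8, 13.5 and 15.1 CPM to 8.96, 12.1 and 8.23 CPM (log2 -0.62, SE 0.154, adjusted p = 0.000428, or 0.0671 with libraries summed). It fell too in HCC2935, from 17.9, 21.2 and 16.4 CPM to 11.4, 12.3 and 10.4 CPM (log2 -0.79, SE 0.160, adjusted p = 0.000116). The JAG1 start region did not follow: its log2 change was 0.30 in PC9 (adjusted p = 0.0444), -0.01 in H1975 and -0.18 in HCC2935, the last 2 not called. The PC9 value was 0.11 after the regional median was removed (adjusted p = 0.559).

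JAG2, the other Jagged ligand, carried more member regions in HCC2935 than any other gene there, 22, and 17 of them fell. Those regions lie in a part of chromosome 14 where the median of 2074 regions was itself -1.04 in HCC2935. After that median was removed, 3 JAG2 regions were called higher and 8 lower. In PC9, JAG2 had 1 call in each direction of 10. The region 24.8 kb into the gene (chr14:105143686-105144187) had the largest rise among Notch regions in PC9, from 4.01, 2.75 and 2.54 CPM to 7.98, 10.9 and 8.63 CPM. The groups did not overlap, as the rule for a largest rise requires (log2 1.56, SE 0.232, edgeR adjusted p = 1.22e-09). The region 7.4 kb into JAG2 fell in 3 lines, by 0.89 in PC9, 1.39 in H1975 and 1.04 in HCC2935, the last equal in size to the median of its surroundings.

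Among the targets, HES1, a repressor that oscillates in progenitor cells, had 11 of 18 regions lower and 1 higher in PC9, 10 lower and 5 higher of 16 in H1975, and 5 lower of 12 in HCC2935. The region 14 kb upstream (chr3:194121864-194122365 in PC9) held 8.27, 7.85 and 8.02 CPM in PC9 control and 1.17, 2.87 and 1.41 CPM in DTP libraries. H1975 libraries held 7.26, 5.31 and 6.05 CPM and then 0.961, 0.949 and 0.419 CPM. HCC2935 libraries held 10.4, 9.79 and 8.82 CPM and then 5.04, 5.15 and 5.30 CPM. Control and DTP libraries did not overlap in these lines, and the log2 changes were -2.17 (SE 0.270, edgeR adjusted p = 2.19e-13), -3.15 (SE 0.270, adjusted p = 1.11e-23) and -1.0 (SE 0.215, adjusted p = 0.000256). In HCC827 the libraries held 8.13, 7.78 and 7.44 CPM in control and 1.35, 1.58 and 6.83 CPM in DTP. DTP replicate 3 stood apart from the other DTP libraries there but still lay below the controls, and the change of -1.22 (SE 0.564) was not called (adjusted p = 0.674, or 0.0988 with the replicate block).

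The region 5.0 kb upstream of HES1 was the most open Notch region printed here, at 68.7, 61.6 and 64.5 CPM in PC9 control libraries and 27.8, 34.5 and 34.7 CPM in DTP libraries. Its log2 changes were -1.03 (SE 0.0789, edgeR adjusted p = 7.63e-33) in PC9, -0.54 (SE 0.0818, adjusted p = 1.49e-09) in H1975 and -1.39 (SE 0.240, adjusted p = 1.07e-05) in HCC2935. In H1975 the DTP libraries held 24.2, 24.5 and 24.4 CPM and the control libraries 33.0, 31.1 and 30.8 CPM, without overlap. In HCC2935 control replicate 3 was low, at 8.57 CPM, and the groups overlapped. The largest fall in PC9 was 3.5 kb upstream of HES1, from 15.3, 12.2 and 10.6 CPM to 1.95, 2.05 and 1.41 CPM (log2 -2.80, SE 0.241, adjusted p = 1.43e-26). Downstream, the region 22.8 to 22.9 kb from the start fell by 0.71 in PC9, 1.41 in H1975 and 0.86 in HCC2935.

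The RBPJ letters printed above lie in the HES1 start region. Its libraries held 26.3, 26.1 and 26.6 CPM in PC9 control and 22.8, 24.6 and 24.7 CPM in PC9 DTP (log2 -0.16, SE 0.106, edgeR adjusted p = 0.246). In H1975 they held 30.4, 24.7 and 21.0 CPM and then 19.0, 23.7 and 21.1 CPM, overlapping groups with a log2 change of -0.41 (SE 0.0914, adjusted p = 4.52e-05, or 0.114 with libraries summed). In HCC2935 the change was -0.30 (adjusted p = 0.0790). The region 1.0 to 1.3 kb upstream changed by -0.45 in PC9 and -0.43 in H1975, both called, and by -0.33 in HCC2935, not called. The start was not tested against its flanks. Inside the gene, 0.7 kb and 1.5 kb from the start, 2 regions rose in H1975 by 1.31 (SE 0.316, adjusted p = 0.000172) and 1.19 (SE 0.126, adjusted p = 6.02e-17). The H1975 region at 0.7 kb went from 1.02, 0.774 and 1.03 CPM to 2.52, 3.48 and 1.89 CPM.

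**Figure D3:**
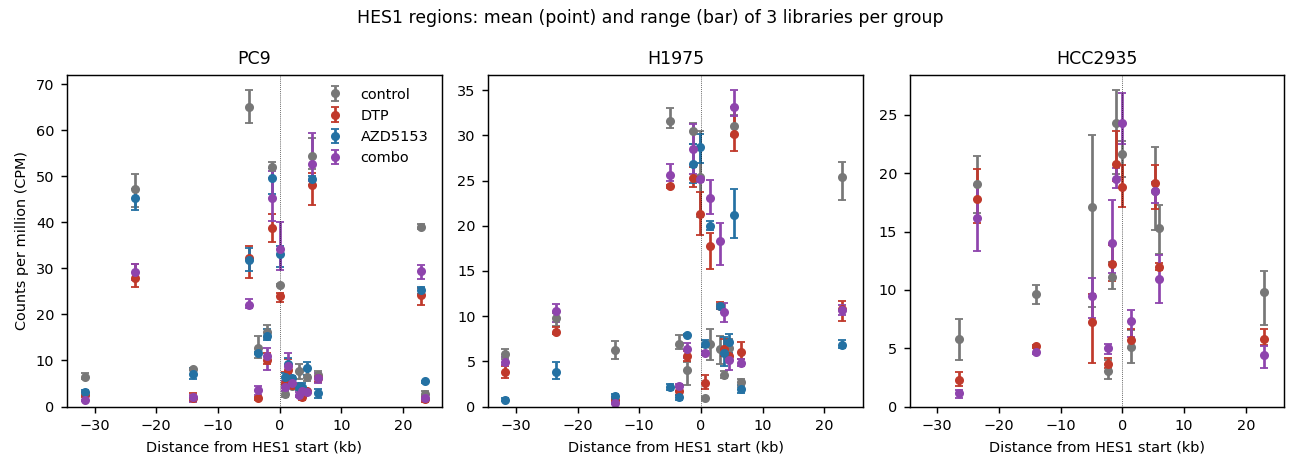
CPM (linear axis) of each HES1 region by distance from the HES1 start in kb, with points for the mean and bars for the range of 3 libraries per group, in PC9, H1975 and HCC2935. Control points stand above DTP points at 14 kb and 5.0 kb upstream and near 22.9 kb downstream, while at the start the control and DTP means are 26.3 and 24.0 CPM in PC9.

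**Figure D4:**
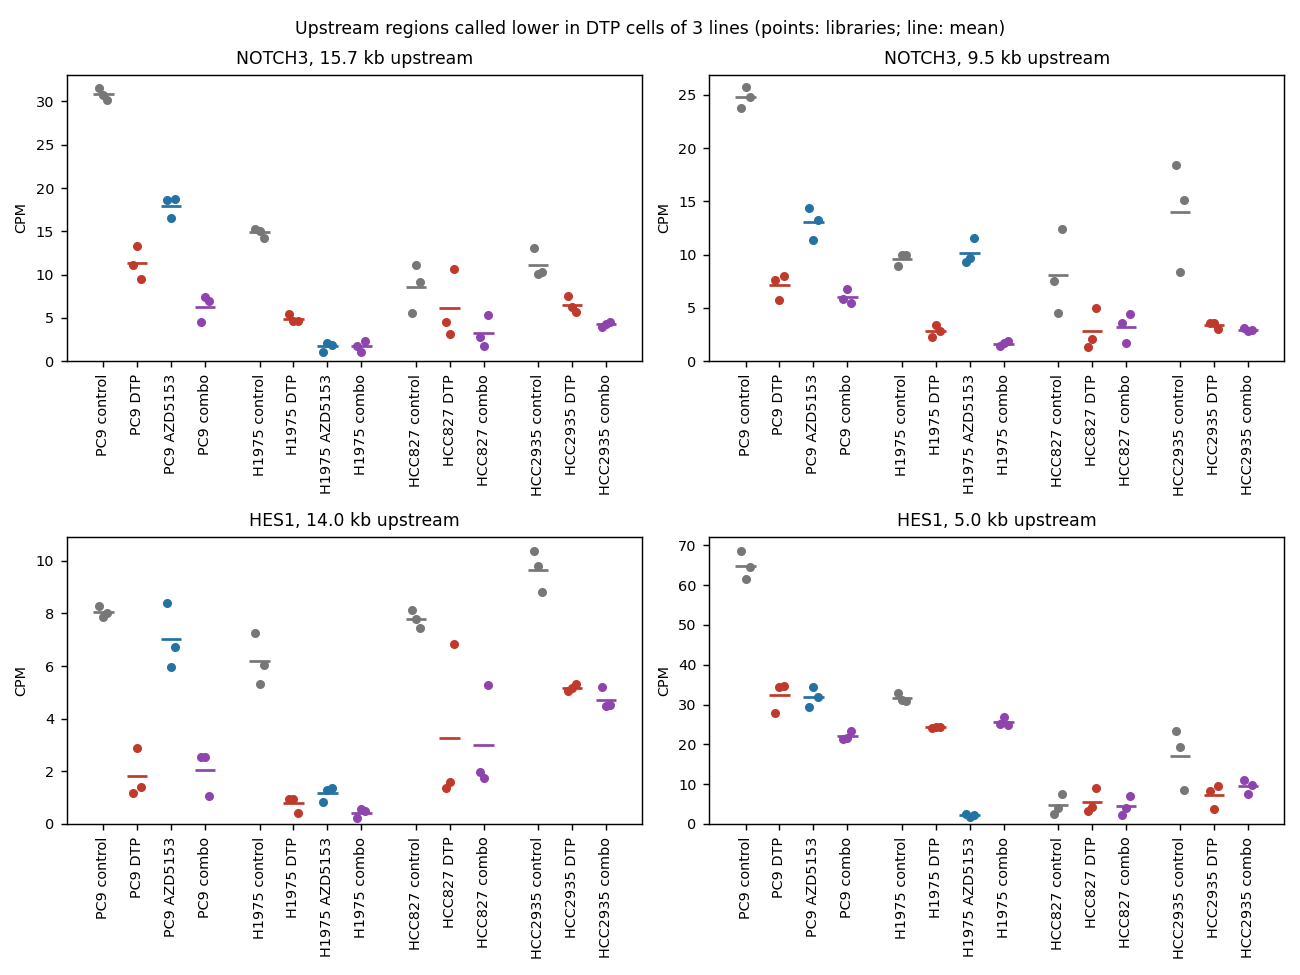
CPM (linear axis from 0) of 2 NOTCH3 and 2 HES1 upstream regions in each library of the 14 groups, with a line for the mean of 3. DTP libraries lie below control libraries in PC9, H1975 and HCC2935, except that at HES1 5.0 kb upstream the HCC2935 groups overlap at 8.57 CPM in control and 9.61 CPM in DTP.

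NRARP had 9 of 17 regions lower and 1 higher in PC9, 10 lower and 1 higher of 16 in H1975, and 1 lower and 3 higher of 8 in HCC2935. The region 5.5 kb from its start, beyond the short gene, held 9.02, 8.24 and 12.1 CPM in PC9 control and 1.75, 2.46 and 1.20 CPM in DTP libraries (log2 -2.47, SE 0.257, edgeR adjusted p = 1.41e-18). The largest fall in HCC2935 was at 4.0 kb, from 10.4, 11.2 and 7.31 CPM to 1.95, 1.43 and 1.49 CPM (log2 -2.66, SE 0.283, adjusted p = 3.02e-10). At the NRARP start itself the lines split. HCC2935 rose from 11.1, 10.96 and 10.1 CPM to 14.6, 15.2 and 18.2 CPM (log2 0.48, SE 0.166, adjusted p = 0.0197), whereas PC9 changed by -0.49 (SE 0.136, adjusted p = 0.00188) and H1975 by -0.31 (SE 0.122, adjusted p = 0.0246). The adjusted p with libraries summed was 0.130, 0.148 and 0.275 in HCC2935, PC9 and H1975, and the groups overlapped in the last 2.

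HEY1, the other bHLH target, had 4 of 6 regions lower in H1975 and 1 of 4 higher in PC9. The region 41.5 kb from its start held 6.37, 5.53 and 5.36 CPM in H1975 control and 1.44, 0.738 and 1.47 CPM in DTP libraries (log2 -2.40, SE 0.247, edgeR adjusted p = 9.95e-18). In PC9 it rose from 1.75, 1.96 and 1.76 CPM to 4.28, 5.33 and 4.02 CPM (log2 1.27, SE 0.313, adjusted p = 0.000449). The HEY1 start region did not pass the test in either line, at 0.28 in PC9 and -0.18 in H1975.

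A joint edgeR fit of control and DTP libraries asked whether the DTP change of a region differed between the 4 lines. Of 55 Notch regions tested, 16 were called, where 37.2% of 81122 matched regions were. They were 4 regions each of JAG2 and NRARP, 3 of HES1, 2 of HEY1 and 1 each of NOTCH1, NOTCH3 and JAG1. The JAG1 region 2.3 kb into the gene had the smallest adjusted p (1.94e-09), followed by the HEY1 region 41.5 kb from its start (1.65e-08). For the NOTCH3 region 9.5 kb upstream the difference between lines was not called (adjusted p = 0.404), and its changes were those given above.

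Adding AZD5153 to persister cells, the comparison of combo with DTP, gave fewer calls than DTP against control in PC9, H1975 and HCC2935. That held for Notch regions and for all annotated regions. In PC9, 20 of 76 were called, 8 higher and 12 lower, where 29.2% of annotated regions were called, and 4 were called with libraries summed (8.11% of all tested regions). In H1975, 19 of 65 were called, 11 higher and 8 lower, against 32.6%, and 5 with libraries summed (5.97%). In HCC2935, 2 of 59 were called against 12.9%, none with libraries summed (5.36%), and in HCC827 none of 17 was (0.0% of annotated regions; 1 Notch region had an unadjusted p under 0.05). Scaling by library size alone gave 3 higher and 13 lower in PC9 and 7 higher and 10 lower in H1975, and removing regional medians gave 4 higher and 12 lower in PC9 and 11 higher and 5 lower in H1975. Of all tested regions, 21.8% and 20.4% were called with the first of these and 21.9% and 20.3% with the second, in PC9 and H1975. Of annotated regions in the main fit, 10797 were called higher and 9512 lower of 69565 in PC9. In H1975, 16926 were called higher and 8140 lower of 76952. The median log2 change over the Notch regions was -0.01 in PC9, 0.07 in H1975 and 0.11 in HCC2935.

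HES1 regions gave 4 of the 8 rises in PC9 and 8 of the 11 in H1975, and 0 and 3 of them were called with libraries summed. In H1975, 8 of 16 HES1 regions rose and none fell, and in PC9 4 of 18 rose and 2 fell. The region 0.7 kb into the gene held 2.52, 3.48 and 1.89 CPM in DTP and 5.71, 5.97 and 6.16 CPM in combo libraries (log2 1.25, SE 0.197, edgeR adjusted p = 7.82e-08). At the HES1 start, PC9 DTP libraries held 22.8, 24.6 and 24.7 CPM and combo libraries 40.0, 32.9 and 29.7 CPM. The groups did not overlap (log2 0.52, SE 0.0987, adjusted p = 6.01e-06), but the adjusted p with libraries summed was 0.141. DTP and combo libraries did not overlap at 41.7% of annotated regions in PC9. H1975 changed by 0.31 at the start (SE 0.0900, adjusted p = 0.00538) and HCC2935 by 0.36 (SE 0.128, adjusted p = 0.0694).

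Of the NOTCH3 regions, 2 fell and 1 rose of 13 in PC9, 3 fell of 9 in H1975 and none of 7 was called in HCC2935. With libraries summed 2 were called in PC9 and 2 in H1975, all lower. The region 15.7 kb upstream went from 5.41, 4.64 and 4.61 CPM in H1975 DTP to 1.75, 1.11 and 2.29 CPM in combo libraries, the largest fall in that line (log2 -1.40, SE 0.229, edgeR adjusted p = 2.40e-07). The largest fall in PC9 by the rule, which asks for a mean of at least 20 counts per library in one group, was the NOTCH3 region 13.6 kb into the gene, from 5.26, 4.92 and 3.61 CPM to 2.54, 0.843 and 3.16 CPM (log2 -1.06, SE 0.297, adjusted p = 0.00395). JAG1 2.3 kb into the gene fell in PC9 from 8.96, 12.1 and 8.23 CPM to 3.71, 5.06 and 5.27 CPM (log2 -1.05, SE 0.203, adjusted p = 1.04e-05). The HEY1 start region fell in PC9 from 9.54, 8.82 and 8.84 CPM to 4.29, 4.22 and 4.85 CPM (log2 -1.02, SE 0.209, adjusted p = 4.13e-05, or 0.0146 with libraries summed). The largest rise in PC9 was 14.6 kb upstream of NRARP (log2 0.65, adjusted p = 0.0245). In HCC2935 the 2 calls were a rise 0.9 kb upstream of JAG1 (log2 0.73, adjusted p = 0.0457) and a fall 7.8 kb from the NRARP start (log2 -0.76, adjusted p = 0.0120).

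For AZD5153 alone against control in H1975, 50 of 65 Notch regions were called, 22 higher and 28 lower. Calls were as wide over the whole line, where 72.2% of annotated regions were called (29.0% higher and 43.2% lower). With libraries summed, 44 were called, where 48.2% of all tested regions were. In PC9, 33 of 76 were called, 12 higher and 21 lower, against 32.4%, and 18 with libraries summed (14.1%). Of 69565 annotated regions in PC9, 9923 were called higher and 12636 lower. The median log2 change was -0.11 in H1975 and -0.04 in PC9.

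In H1975 the region 5.0 kb upstream of HES1 held 33.0, 31.1 and 30.8 CPM in control and 2.50, 1.77 and 2.12 CPM in AZD5153 libraries (log2 -4.02, SE 0.144). In PC9 the same region went from a mean of 64.9 to 31.9 CPM. The HES1 region 0.7 kb into the gene had the largest rise in H1975, from 1.02, 0.774 and 1.03 CPM to 7.37, 6.61 and 6.68 CPM (log2 2.71, SE 0.256, edgeR adjusted p = 1.92e-20), while the start region held 25.4 and 28.7 CPM (log2 0.03, adjusted p = 0.809). In PC9 the largest rise was 0.9 kb into HES1 as well (log2 1.07, SE 0.259, adjusted p = 0.000380).

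All 6 HEY1 regions fell in H1975. The region 41.5 kb from the start went from 6.37, 5.53 and 5.36 CPM to 0.238, 0.323 and 0.106 CPM, which is 1 or 2 reads per library (log2 -4.84, SE 0.377, edgeR adjusted p = 1.15e-27). The start region went from 7.77, 7.19 and 7.76 CPM to 4.99, 5.00 and 5.94 CPM (log2 -0.65, SE 0.164, adjusted p = 0.000273). Of 16 NRARP regions in H1975, 9 rose and 3 fell, whereas in PC9 1 of 17 rose and 8 fell. The NRARP region 5.5 kb from the start had the largest fall in PC9, from 9.02, 8.24 and 12.1 CPM to 0.600, 0.964 and 0.963 CPM (log2 -3.59, SE 0.303, adjusted p = 2.00e-27). At the JAG2 start in H1975 the level went from 7.64, 7.96 and 8.56 CPM to 4.52, 3.23 and 4.24 CPM (log2 -1.14, SE 0.176, adjusted p = 3.53e-09).

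Part of the H1975 values was shared with the surrounding genome. For AZD5153 against control the median log2 change of all tested regions in the surrounding 10 Mb was 1.10 at NOTCH3, 0.69 at NOTCH1 and NRARP, -1.21 at HEY1, -0.70 at JAG1, -0.21 at JAG2 and -0.18 at HES1. After these medians were removed, 47 Notch regions were called, 18 higher and 29 lower, where 53.5% of all tested regions were. The JAG1 region 0.6 kb into the gene went from a log2 change of 1.78 to 2.43 by this step. The HEY1 start went from -0.65 to 0.43, the NRARP start from 0.40 to -0.20 and the NOTCH3 region nearest to an annotated start from 0.63 to -0.36, so their direction depends on it. HES1 lay where the surroundings changed little, and its region 5.0 kb upstream kept a large fall. The part of the surroundings in these results was not tested further.

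**Figure D5:**
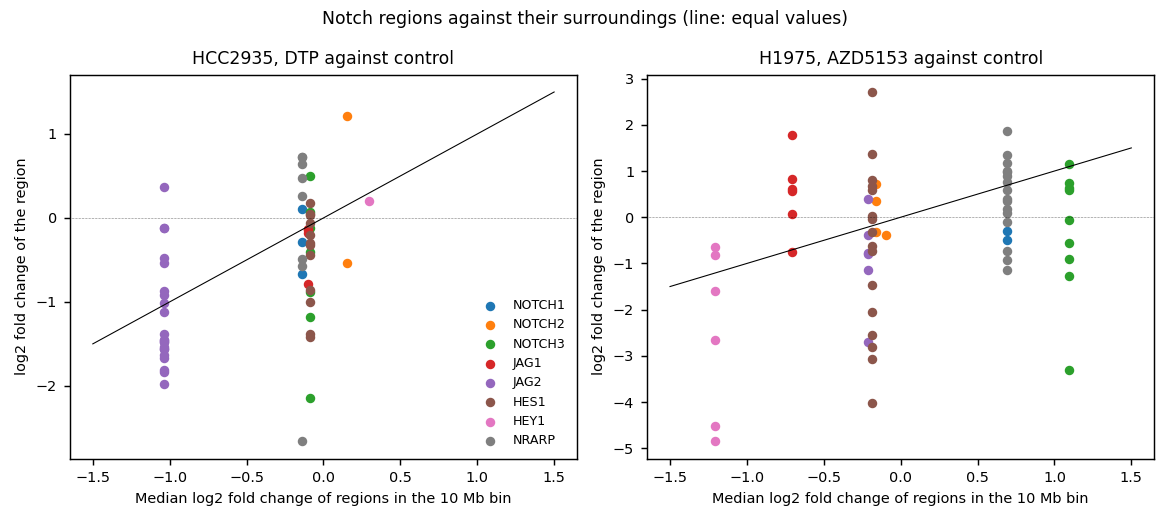
Log2 fold change of each Notch region (vertical axis) against the median log2 fold change of regions in its 10 Mb bin (horizontal axis), for DTP against control in HCC2935 and AZD5153 against control in H1975, with a line where both are equal and 1 colour per gene. JAG2 regions in HCC2935 scatter around a median of -1.04, and in H1975 the NRARP regions sit at 0.69 and the HEY1 regions at -1.21.

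The interaction asked whether AZD5153 acted differently in persister and in untreated cells. It was called for 16 of 76 Notch regions in PC9 (12 positive and 4 negative), where 18.9% of annotated regions were, and for 42 of 65 in H1975 (25 positive and 17 negative), where 59.8% were. Of annotated regions, 7527 were called positive and 5638 negative of 69565 in PC9. In H1975, 30769 were called positive and 15266 negative of 76952. With libraries summed, 5 and 24 Notch regions were called (4.81% and 30.9% of all tested regions). Scaling by library size alone gave 10 positive and 6 negative in PC9 (13.4%). In H1975 it gave 20 positive and 28 negative (46.7%), and removing regional medians gave 28 positive and 8 negative (37.7%).

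A positive value here means a smaller loss or a larger gain in persister cells. HES1 5.0 kb upstream in H1975 had an interaction of 4.17 on the log2 scale. AZD5153 libraries held 2.50, 1.77 and 2.12 CPM, but combo libraries held 25.1, 26.9 and 24.9 CPM beside 24.2, 24.5 and 24.4 CPM in DTP. The largest positive interaction in H1975 was at HEY1 41.5 kb from the start (4.72, SE 0.610, edgeR adjusted p = 5.10e-12), where DTP libraries were already low. The largest in PC9 was 5.5 kb from the NRARP start (3.20, SE 0.583, adjusted p = 3.53e-06), again with low DTP levels. The largest negative interaction in PC9 was 18.5 kb upstream of NOTCH2 (-2.50, SE 0.680, adjusted p = 0.00411), where AZD5153 libraries held 6.60, 5.59 and 5.58 CPM and combo libraries 0.0, 0.632 and 0.422 CPM. In H1975 it was 6.1 kb upstream of NRARP (-1.71, SE 0.498, adjusted p = 0.00267, or 0.0882 after regional medians were removed).

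The other genes of the pathway were followed through a list of 51, of which 43 had a promoter region in PC9 and in HCC2935, 45 in H1975 and 37 in HCC827. In DTP cells 6 rose and 9 fell in PC9, where 29.5% of annotated promoter regions were called. In H1975 8 rose and 13 fell (53.1%), in HCC2935 10 rose and 5 fell (36.3%), and in HCC827 none was called (0.00612%). With libraries summed, 2 were called in PC9, both lower, 8 in H1975 (4 higher) and 8 in HCC2935 (5 higher). Of all tested regions, promoter or not, 19.4%, 40.2% and 32.9% were called in this way in these lines. The promoter of APH1A, a gamma-secretase subunit, rose in PC9, H1975 and HCC2935, by 0.55, 0.31 and 0.44 on the log2 scale. That of MAML2, a Mastermind coactivator, rose in the same 3 lines by 0.26, 0.31 and 0.73, but its surroundings in H1975 and HCC2935 had medians of 0.44 and 0.84. The nearest region of DLK1, a non-canonical ligand, fell in the 3 lines by 1.00, 2.58 and 1.78, and in PC9 and H1975 that region lay far upstream. The promoter of NUMB, an endocytic inhibitor of Notch, rose in PC9 by 0.24 and fell by 0.45 in H1975 and by 0.49 in HCC2935. In HCC2935, 2 promoters of the endocytosis and ubiquitin ligase genes, the part of the list that holds NUMB, fell. After regional medians were removed, 0 of them were called lower. The ligands of the list lay in surroundings with medians down to -1.04 in HCC2935, and 1 was called lower after this step. With libraries summed DLK1 kept its call in the 3 lines and MAML2 in HCC2935, and the other calls of these 4 genes were lost (adjusted p = 0.0678 to 0.528). The 4 genes were named after their values were seen.

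With AZD5153 alone, 23 list promoters rose and 6 fell in H1975, where 69.3% of annotated promoter regions were called, and 5 rose and 4 fell in PC9 (25.4%). Of the annotated promoter regions, 14326 rose and 10570 fell of 35918 in H1975, and 4134 rose and 4964 fell of 35841 in PC9. Combo against DTP gave 15 higher and 4 lower in H1975 (33.8%), 6 and 3 in PC9 (27.4%), and 5 and 1 in HCC2935 (9.77%). Here 9286 annotated promoter regions rose and 2854 fell in H1975, and 6142 rose and 3691 fell in PC9. In HCC2935, 1366 rose and 1479 fell of 29125. With libraries summed, AZD5153 gave 12 calls in H1975 (8 higher) and 1 in PC9, and combo gave 2 in H1975, 1 in PC9 and 0 in HCC2935, none of them higher. Of all tested regions, promoter or not, 48.2% in H1975 and 14.1% in PC9 were called in this way for AZD5153. For combo 5.97% were called in H1975, 8.11% in PC9 and 5.36% in HCC2935. The promoters of ADAM10 and ADAM17, the proteases that make the first cut in the receptor, rose in combo cells in PC9 by 0.28 and 0.38 and in H1975 by 0.43 and 0.30, and all 4 calls were lost with libraries summed (adjusted p = 0.268 to 0.499).

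Over the 14 groups, with the mean of each line removed, the promoter regions whose pattern was most like that of HES1 among 7025 promoters were those of TCF7L2 (Pearson r = 0.92), LRRC20 (0.92) and TRIM8 (0.91). These correlations are a description over group means that come from the same libraries and share their depth. Regional medians were not removed, so shifts shared along a chromosome can enter them.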

How the data were processed

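ATAC-seq was performed on 42 libraries from 4 lung adenocarcinoma cell lines. The titles and design text name ATAC-seq, while the labels' extraction protocol describes a chromatin immunoprecipitation, and the values were read as ATAC-seq. The authors deposited, per line, tables of read counts per region (counts as whole numbers, not normalized), annotated tables with a gene symbol and a distance to a start for each region, and peak lists per library with a −log10 q-value (deposited score of the peak caller). The submitters' processing notes name BWA 0.7.17, SAMtools 1.9, deepTools 3.4, MACS2 2.2.6, featureCounts 2.0.0 and ChIPseeker 1.29.1, with no role or order, and regions are on hg38. How duplicate reads were treated, and whether reads were shifted to the insertion site, is not given in these sources. Both affect counts near region edges and of highly open regions.

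Groups were taken from the labels. Regions were tested per line with edgeR 4.0.16 in R 4.3.3 (quasi-likelihood test, TMM, filterByExpr, all groups of a line in 1 fit), with Benjamini-Hochberg adjustment over all tested regions and a threshold of 0.05. The fits were tested on simulated counts. The 4 lines were joined over regions with a reciprocal overlap of at least 50%. Promoter regions are those within 3 kb of a start in the annotation. Intervals and p-values cover counting error where libraries agree within sampling noise. An exact permutation test of 3 against 3 libraries cannot go below p = 0.1 and was not used. In HCC827 the correlation of deviations between libraries of the same replicate number was 0.257 to 0.827. Between libraries of other numbers it was -0.675 to 0.516, so the ranges overlap. The numbers were taken to pair the libraries, which the labels do not state. The alternatives were DESeq2 1.42.0, other scalings and filters, a replicate block, leaving out each library, summing the libraries of a group and removing the median of each 10 Mb.

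Members and gene lists were chosen with earlier results of these data known. Regions named in the text are the region nearest to a start for each gene and line, the largest rise and fall per comparison and line among called, non-overlapping regions with a mean of at least 20 counts per library in 1 group (overlap not considered for the interaction), and the regions called the same way in at least 3 lines. Others are said to be chosen after their values were seen. This also holds for the JAG1 regions inside the gene, the HES1 region 1.0 to 1.3 kb upstream and the HES1 region 1.5 kb into the gene in H1975. It holds too for NRARP 14.5 kb upstream in HCC827, and for ADAM10 and ADAM17.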

Additional observations from a re-analysis of the deposited data

Results flagged for a closer look

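The effect of AZD5153 differed between persister and untreated cells at 16 of 76 Notch regions in PC9 and 42 of 65 in H1975 by the interaction term. Of annotated regions, 18.9% in PC9 and 59.8% in H1975 were called. In H1975, AZD5153 alone went with shifts of the surrounding genome, also around HEY1. With regional medians removed, 36 Notch regions were called there, 28 positive and 8 negative, where 37.7% of all tested regions were. A shift of the surroundings and an effect that depends on the persister state cannot be told apart there. The largest interactions in each direction, by the rule for named regions, were the HEY1 region 41.5 kb from its start (4.72) and the NRARP region 6.1 kb upstream (-1.71) in H1975, and the NRARP region 5.5 kb from its start (3.20) and the NOTCH2 region 18.5 kb upstream (-2.50) in PC9, all on the log2 scale. The DTP change differed between the 4 lines at 16 of 55 Notch regions in the joint fit, where 37.2% of matched regions were called. Groups of 3 libraries were not tested for single outlying samples.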

How the results depend on the processing

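The DTP counts in PC9, H1975 and HCC2935 stayed within 1.5 times of the reported values in every alternative run. Combo against DTP was less stable. In PC9 it gave 13 without a filter, 7 with DESeq2 and 4 with libraries summed. In H1975 it gave 12, 9 and 5 under the same settings. In HCC2935 it gave 0 under each of them, 5 with a filter at a mean of 20 counts and 6 with annotated regions only. AZD5153 against control in PC9 gave 19 with DESeq2 and 18 with libraries summed. The interaction gave 10 in PC9 without a filter, 8 with DESeq2 and 5 with libraries summed, and 24 in H1975 with libraries summed. The replicate block gave 1 call in HCC827 for DTP and changed no other count by over 1.5 times. NOTCH1 promoter peaks were present in 18 libraries at a −log10 q of at least 5.

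Leaving out 1 library gave, for DTP, 32 to 37 in PC9, 42 to 50 in H1975, 27 to 34 in HCC2935 and 0 in HCC827. For combo it gave 10 to 19 in PC9, 11 to 20 in H1975, 0 to 3 in HCC2935 and 0 in HCC827. For AZD5153 it gave 26 to 34 in PC9 and 48 to 53 in H1975, and for the interaction 13 to 17 and 34 to 41. In PC9 combo the count was 13 without DTP replicate 1, 12 without DTP replicate 2, 10 without combo replicate 1 and 13 without combo replicate 2. In H1975 combo it was 11 without combo replicate 1 and 12 without combo replicate 3. In HCC2935 combo it was 0 without DTP replicate 1 or 2 or any combo replicate, and 1 without DTP replicate 3.

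Of 2750 values for named regions under alternatives, 2540 kept direction and side of the threshold, 156 lost the call, 45 gained it and 9 reversed, all in H1975. With regional medians removed, AZD5153 against control became -0.36 at NOTCH3 23.3 kb into the gene, 0.43 at the HEY1 start and -0.20 at the NRARP start, and the interaction became 0.62, -0.32 and 0.43 at the same regions and -0.29 at the JAG1 start. Scaling by library size alone gave 0.19 for DTP and -0.0081 for the interaction at the JAG1 start. The cause was not tested. HCC827 had the lowest totals and the widest spread (a biological coefficient of variation of 45.0%, against 0.988% to 10.1% elsewhere). Of all its tested regions, 18 were called for DTP, and 3191 with the replicate block. Which of depth and spread limits the calls there was not tested.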
